A study of Homo sapiens with 9 samples.

Results

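Peaks of chromosome 6 were taken from the deposited ChIRP-seq peak lists of K562 cells, a human erythroleukemia line, and described by chromosome arm and for a histone gene segment and an HLA segment of the short arm. All peaks listed on chromosome 6 were used, which gave 1354 of the 20698 peaks in the 6 lists, or 6.54%. Of these, 955 were in the 3 SRA lists and 399 in the 3 LacZ lists. In ChIRP, tagged DNA probes hybridize to an RNA in crosslinked, sheared chromatin, and the DNA that comes down with it is sequenced. One probe set targeted the lncRNA SRA (steroid receptor RNA activator), and the other targeted the LacZ transcript, a bacterial sequence that serves as the control for probe and bead background. Each probe set was used on 3 samples of K562 cells in standard culture. The series also has 3 input samples, for which no peak list was used here. The study's methods call the samples of a probe set biological replicates, and the labels do not say whether they came from separate cultures. P-values measure at most the spread between these samples. Those that use the mean of the SRA lists leave out the spread between SRA samples.

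The short arm of chromosome 6 carries the main cluster of replication-dependent histone genes, which are transcribed in S phase to package newly made DNA. Closer to the centromere lies the HLA segment, the human major histocompatibility complex. It holds class I and class II genes, which present peptides to T cells, with a gene-dense class III part between them that carries complement and other immune genes. K562 cells are known for carrying little or no HLA class I on their surface, which makes them a common target in natural killer cell assays. SRA was first described as an RNA coactivator of steroid receptors and has since been found on chromatin with the architectural protein CTCF.

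Positions are in hg19, counted from 1. The short arm was taken as peaks ending before 58830166, the long arm as peaks starting after 61830166, the histone segment as 26 to 28 Mb and the HLA segment as 29.5 to 33.5 Mb. Of the chromosome 6 peaks, 0 lay in the centromere gap and 0 crossed a segment bound. The first peak of any list started at 203533 and the last ended at 171046490. No annotation or genome of hg19 was used here, so peaks were not tied to genes and no sequence was read. In the order of the RefSeq gene table (GRCh38.p14, names and order only), 55 histone genes ran from H2AC1 to H2BC17 with 19 other protein-coding genes among them. They comprised 6 H1 linker genes, 12 H2A, 15 H2B, 10 H3 and 12 H4 core histone genes. From HLA-F to HLA-DPB1 the same table lists 128 protein-coding genes, of which 19 are HLA genes. Neither run of genes was matched to the segment bounds, so the gene content of the segments may differ from these counts.

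The lists differ in ways that touch each comparison. SRA lists 1, 2 and 3 held 4982, 4946 and 5187 peaks in all, and LacZ lists 1, 2 and 3 held 2676, 2617 and 290. LacZ list 3 stands apart, with a median peak width of 1113.5 bp against 155 to 158 bp in the other 5 lists. On chromosome 6, peaks of different SRA lists that shared at least 1 base had identical bounds. This held for all 156 such pairs of lists 1 and 2, all 165 of lists 1 and 3, and all 164 of lists 2 and 3. LacZ lists 1 and 2 met at 5 pairs of peaks, and 0 of those had identical bounds. Boundaries of the SRA lists are therefore not separate measurements, and the mean of the SRA lists was counted as 1 sample in tests. Read depth is unknown, since the lists give no read counts.

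Chromosome 6 shares of SRA and LacZ lists overlapped. It had 321, 320 and 314 peaks in SRA lists 1, 2 and 3, which is 6.44%, 6.47% and 6.05% of each list. LacZ lists 1, 2 and 3 had 171, 190 and 38 peaks, or 6.39%, 7.26% and 13.1%. The Wilson 95% interval of the last share ran from 9.70% to 17.5%, and like all such intervals here it covers counting error only. The mean share was 6.32% for SRA against 8.92% ± 3.65 for LacZ (SD, n = 3), with a difference of -2.60 percentage points (two-sided exact permutation test, p = 0.5), and without LacZ list 3 the difference was -0.503. With peaks over 1000 bp left out it turned to 0.432, or -0.411 without LacZ list 3 as well, and counted in covered bases it was -4.13. With 1 sample against 3, the smallest p this test can give is 0.25, and a mean of 3 lists is set against single lists. Its p is therefore given beside each difference as a description, and a high p does not show that probe sets were alike. Chromosome 5 held 4.65% of SRA peaks on average and 4.92% of LacZ peaks. For chromosome 7, the values were 7.62% and 8.66%. Among chromosomes 1 to 22 and X, chromosome 6 ranked 5 by mean SRA share and 2 by mean LacZ share, or 4 without LacZ list 3.

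Peaks were denser on the short arm than on the long arm in every list of both probe sets. SRA lists 1, 2 and 3 had 181, 168 and 164 short-arm peaks, or 3.08, 2.86 and 2.79 per Mb. On the long arm they had 140, 152 and 150 peaks, or 1.28, 1.39 and 1.37 per Mb. The short arm was thus 2.40, 2.05 and 2.03 times as dense. LacZ lists 1 and 2 had 88 and 96 peaks on the short arm, 1.50 and 1.63 per Mb, and 83 and 94 on the long arm, 0.760 and 0.861 per Mb. LacZ list 3 had 21 and 17. The LacZ ratios were 1.97, 1.90 and 2.29, and these overlap the SRA ratios. Over 4 samples, the SRA mean and the 3 LacZ lists, the geometric mean ratio was 2.07 and all 4 were above 1 (two-sided exact sign-flip test, p = 0.125, the smallest it can give).

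The short-arm share of chromosome 6 peaks was 56.4%, 52.5% and 52.2% in the SRA lists and 51.5%, 50.5% and 55.3% in the LacZ lists. The mean difference was 1.29 percentage points (two-sided exact permutation test, p = 1), less than the LacZ SD of 2.51, and it was -0.0525 without SRA list 1, 0.343 without LacZ list 2, 0.810 without LacZ list 1, 2.03 without SRA list 3 and 2.71 without LacZ list 3. Counted in covered bases in place of peaks it was 5.10 percentage points (exact permutation p = 0.25). Outside the histone and HLA segments, the short arm was still 2.10, 1.82 and 1.78 times as dense as the long arm in SRA lists 1, 2 and 3, and 1.84, 1.803 and 2.31 times in LacZ lists 1, 2 and 3. The arm contrast is therefore present outside both segments in all 6 lists.

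**Figure D1:**
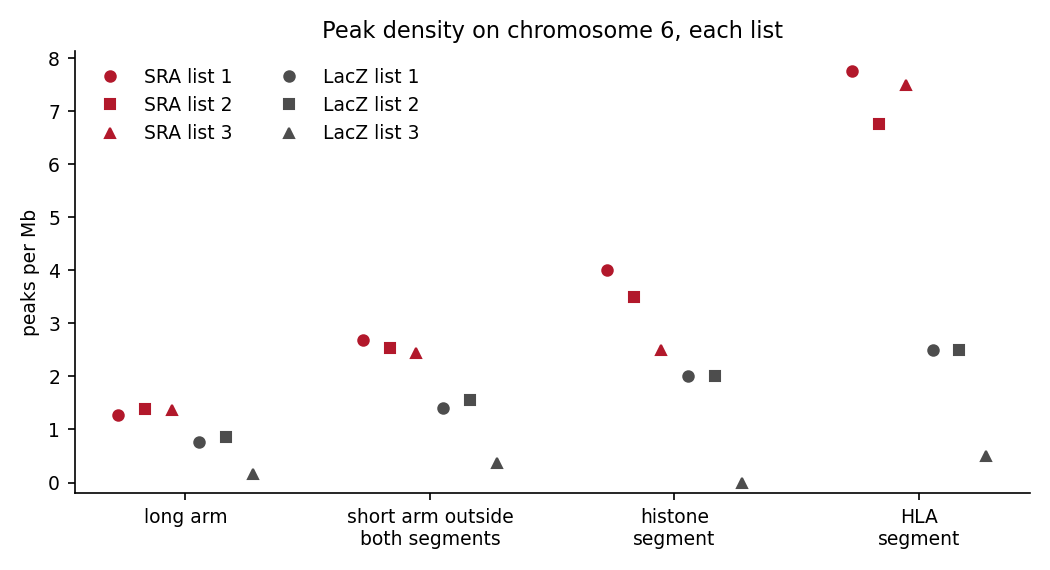
Peaks per Mb on the long arm, on the short arm outside both segments, and in the histone and HLA segments of chromosome 6, 1 point per list (red SRA, grey LacZ). The 3 SRA lists sit between 6.75 and 7.75 peaks per Mb in the HLA segment, and the LacZ lists between 0.5 and 2.5. Densities are not adjusted for list size, which was 4946 to 5187 peaks for SRA and 2676, 2617 and 290 for LacZ.

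The HLA segment was denser than the histone segment in all 6 lists, and its share of chromosome 6 peaks was higher in each SRA list than in each LacZ list. SRA lists 1, 2 and 3 had 31, 27 and 30 peaks there, or 9.66%, 8.44% and 9.55% of their chromosome 6 peaks. LacZ lists 1, 2 and 3 had 10, 10 and 2 peaks, or 5.85%, 5.26% and 5.26%. The groups do not overlap. Of 767 consecutive windows of the same length on all chromosomes, 108, or 14.1%, likewise had SRA shares of their own chromosome's peaks that all lay above the LacZ shares, so this separation was not rare. The mean share was 9.22% for SRA and 5.46% ± 0.338 for LacZ (SD, n = 3), a difference of 3.76 percentage points (two-sided exact permutation test, p = 0.25, the smallest possible, and 1 after Benjamini-Hochberg adjustment over 18 comparisons). Counting error is wide at these numbers, and the Wilson 95% intervals ran from 6.89% to 13.4% in SRA list 1 and from 3.21% to 10.4% in LacZ list 1.

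Without LacZ list 3 that difference was 3.66 percentage points. It changed with the denominator and the width of the peaks counted, through LacZ list 3. As a share of all peaks of a list, the HLA segment held 0.622%, 0.546% and 0.578% in the SRA lists and 0.374%, 0.382% and 0.690% in the LacZ lists, which overlap. The difference was then 0.100 percentage points (exact permutation p = 1), and 0.204 without LacZ list 3, whose share was the only LacZ value not below the SRA values. With peaks over 1000 bp left out, LacZ list 3 kept 5 peaks on chromosome 6, of which 2 lay in the HLA segment, and the difference in share of chromosome 6 peaks became -7.80 percentage points. With that list left out as well it was 3.68. With all 6 lists it was 2.74 with the bounds moved inward by 0.5 Mb on each side, 5.88 with them moved outward by as much, 6.55 for the upper-scoring peaks of each list, and 7.44 when covered bases were counted in place of peaks, each with an exact permutation p of 0.25.

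Within the short arm, HLA density was 2.88, 2.66 and 3.07 times that of the arm outside both segments in SRA lists 1, 2 and 3. In LacZ lists 1, 2 and 3 it was 1.78, 1.61 and 1.39 times. Each list of either probe set was thus denser in the HLA segment, with the SRA lists above the LacZ lists (two-sided exact permutation p = 0.25). As geometric means, the SRA ratio was 1.81 times the LacZ ratio, and with peaks over 1000 bp left out it was 0.679 times (exact permutation p = 1). That value rests on LacZ list 3, whose ratio became 26.4 on 3 short-arm peaks, and without this list it was 1.69 times. Neighbouring SRA peaks in the segment were a median of 64.5, 85.3 and 47.7 kb apart, against 133, 149 and 158 kb over the whole short arm and 358, 358 and 352 kb on the long arm. Set beside the 767 windows of the same length, the mean of 29.3 SRA peaks was 4.50 times the genome mean, and 17 windows held at least as many. The LacZ mean of 7.33 peaks was 3.04 times the genome mean, and 43 windows held at least as many.

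SRA peaks inside the HLA segment were not spread evenly. From 29.5 to 30.5 Mb, SRA lists 1, 2 and 3 had 5, 2 and 4 peaks, and from 30.5 to 31.5 Mb they had 6, 11 and 4. From 31.5 to 32.5 Mb they had 13, 11 and 15, the highest or joint highest step of each list. The last step, from 32.5 to 33.5 Mb, had 7, 3 and 7. LacZ lists 1, 2 and 3 had 2, 5 and 0 peaks from 31.5 to 32.5 Mb and 4, 2 and 2 in the last step.

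**Figure D2:**
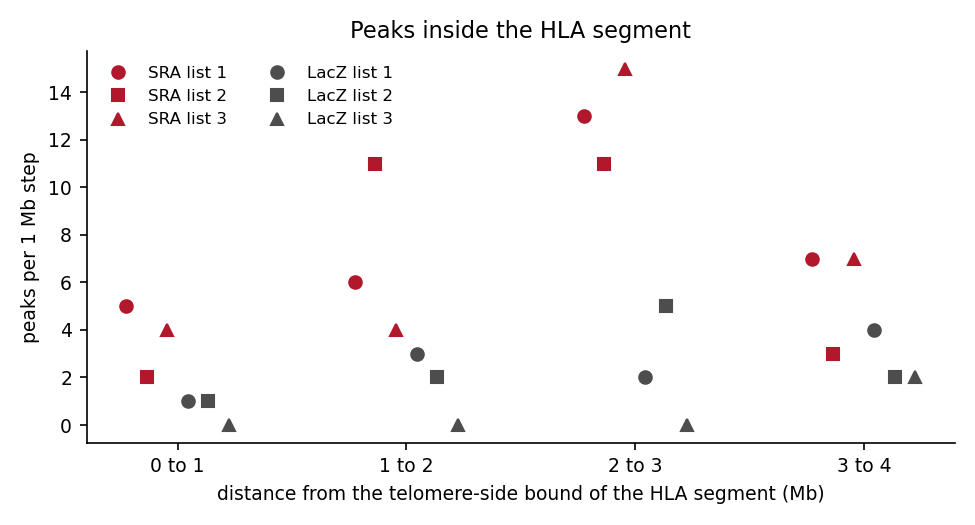
Peaks of each list in 4 consecutive steps of 1 Mb through the HLA segment, by distance from its telomere-side bound. In the step from 2 to 3 Mb the SRA lists held 11 to 15 peaks and the LacZ lists 0 to 5. Counts are not adjusted for list size, and the SRA lists held more peaks in all.

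In the histone segment, shares of chromosome 6 peaks and density ratios overlapped between probe sets. Peak counts and densities did not, and were higher in each SRA list, but the SRA lists also held more peaks in all. SRA lists 1, 2 and 3 had 8, 7 and 5 peaks there, or 4, 3.5 and 2.5 per Mb, and LacZ lists 1, 2 and 3 had 4, 4 and 0. Its share of chromosome 6 peaks was 2.49%, 2.19% and 1.59% in the SRA lists and 2.34%, 2.11% and 0% in the LacZ lists. The difference of 0.609 percentage points (two-sided exact permutation test, p = 1) became -0.132 without LacZ list 3, 0.921 without LacZ list 2 and 1.04 without LacZ list 1. With the bounds moved outward by 0.5 Mb it was -0.574. Relative to the short arm outside both segments, the density was 1.49, 1.38 and 1.02 times in SRA lists 1, 2 and 3, and 1.43 and 1.29 times in LacZ lists 1 and 2. Over all chromosomes, 229 of 1526 windows of 2 Mb, or 15.0%, held at least as many SRA peaks as the mean of 6.67 in this segment, and 218 held at least the LacZ mean of 2.67.

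**Figure D3:**
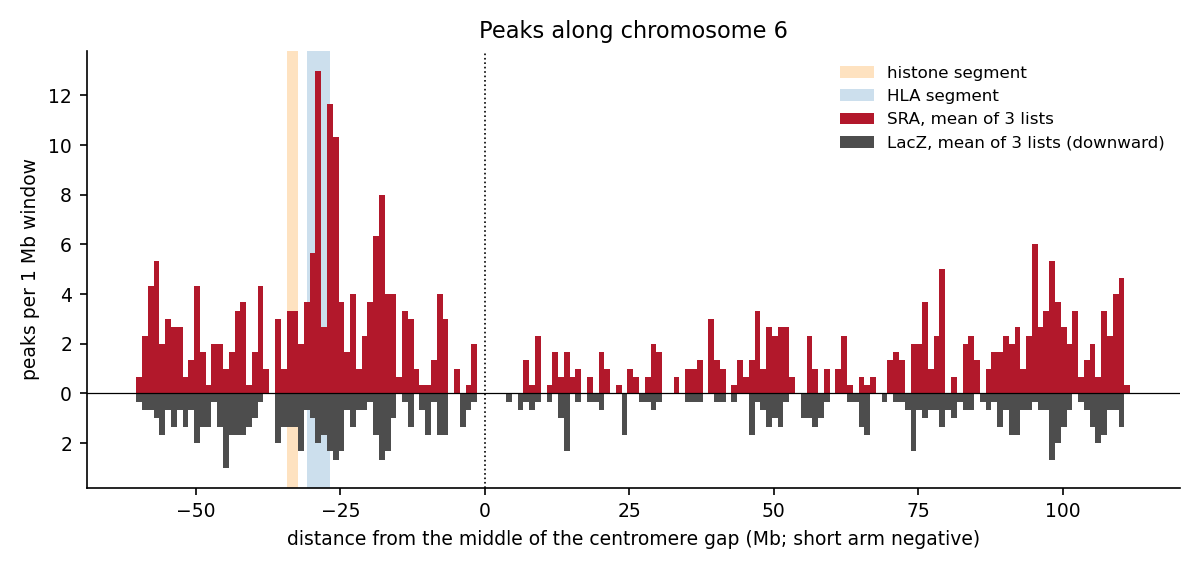
Peaks per 1 Mb window along chromosome 6 by distance from the middle of the centromere gap, short arm to the left, with the mean of 3 SRA lists drawn upward and the mean of 3 LacZ lists downward. The highest SRA window lies in the HLA segment (shaded blue), and the histone segment (shaded orange) has no window of similar height.

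Peaks were wider on the short arm than on the long arm in all 6 lists. Median widths in SRA lists 1, 2 and 3 were 176, 180.5 and 187.5 bp on the short arm and 159, 156 and 158 bp on the long arm. LacZ lists 1 and 2 had 178 and 182 bp against 158 and 152.5 bp, and LacZ list 3 had 1404 bp against 1345 bp. The difference between arms was 23.7 bp on average in the SRA lists and 36.2 bp ± 20.3 in the LacZ lists (SD, n = 3), and these overlap (two-sided exact permutation test, p = 0.75).

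Peaks of the HLA and histone segments were wider still in the SRA lists. HLA medians were 245, 233 and 245.5 bp in SRA lists 1, 2 and 3, against 168.5, 177 and 180 bp on the short arm outside both segments. For the histone segment they were 254, 240 and 240 bp. In LacZ lists 1 and 2 the HLA medians were 188 and 202.5 bp and the histone medians 191.5 and 206.5 bp, against 172 and 177.5 bp for the rest of the arm. HLA peaks of the SRA lists thus exceeded the rest of the arm by 76.5, 56 and 65.5 bp, and those of LacZ lists 1 and 2 by 16 and 25 bp. LacZ list 3 went the other way, with 2 HLA peaks of 875 bp median against 1435 bp. The SRA values lie above the LacZ values (two-sided exact permutation test, p = 0.5), and since the SRA lists share peak boundaries their closeness to each other is no measure of error.

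Scores showed little contrast between arms. The score is the peak caller's measure of significance, and its lowest value was 40 in the lists, which is 10 times the -log10 of a p of 0.0001, although the file header names it -log10 of p. Median scores in SRA lists 1, 2 and 3 were 43.9, 44.6 and 44.8 on the short arm and 43.7, 43.5 and 44.0 on the long arm. In LacZ lists 1, 2 and 3 they were 44.8, 43.5 and 45.4, and 44.0, 43.4 and 44.9. Short-arm medians were higher in all 6 lists by 0.125 to 1.03, and SRA and LacZ lists overlap (two-sided exact permutation test, p = 0.75). HLA medians were 45.7, 43.9 and 44.6 in SRA lists 1, 2 and 3 and 43.4, 42.1 and 42.6 in LacZ lists 1, 2 and 3. Relative to the arm outside both segments the HLA median was higher by 2.08 in SRA list 1, while SRA lists 2 and 3 (-0.825 and -0.415) and all LacZ lists (-1.10, -1.46 and -3.35) were lower. Each SRA value was above each LacZ value, with a mean difference of 2.25 (two-sided exact permutation test, p = 0.5). Histone medians were 48.4, 47.3 and 41.7 in SRA lists 1, 2 and 3 and 46.7 and 44.7 in LacZ lists 1 and 2, each over 4 to 8 peaks. They differed from the arm outside both segments by 4.75, 2.62 and -3.33 in the SRA lists and by 2.12 and 1.15 in LacZ lists 1 and 2, so the SRA lists did not share a direction in either segment.

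**Figure D4:**
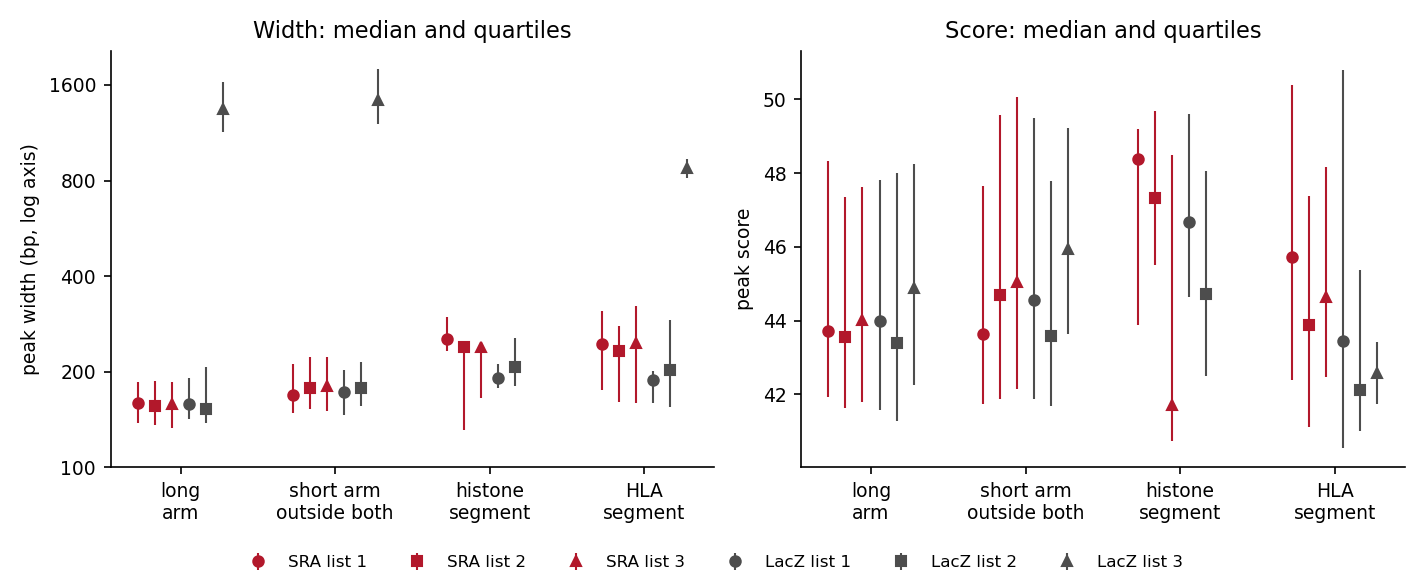
Median peak width in bp (left, log axis) and median score (right) by part of chromosome 6, 1 point per list (red SRA, grey LacZ), with bars for the quartiles of the peaks. SRA medians rise from 156 to 159 bp on the long arm to 233 to 245.5 bp in the HLA segment, while median scores stay between 41.7 and 48.4.

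To see which SRA peaks recur, peaks of the 3 SRA lists that share at least 1 base were merged into regions, and a region was called SRA-binding when at least 2 SRA lists held it and no LacZ peak touched it. Chromosome 6 had 573 regions, of which 294 were in 1 list, 176 in 2 and 103 in 3. Of these, 276 were SRA-binding, or 48.2% (Wilson 95% interval 44.1% to 52.3%), against 52.6% of the 8658 regions of the whole genome. The count rests on all 3 SRA lists, as it was 161, 163 and 154 without SRA list 1, 2 and 3, and 101 when all 3 were required. The share on chromosome 6 was slightly below the background. For chromosome 5 the share was 54.4% and for chromosome 7 it was 51.0%.

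By arm, 142 of 315 short-arm regions (45.1%) and 134 of 258 long-arm regions (51.9%) were SRA-binding. In the HLA segment 24 of 55 regions were, or 43.6% (Wilson 95% interval 31.4% to 56.7%), and in the histone segment 5 of 13, or 38.5% (17.7% to 64.5%). All these shares are below the genome share of 52.6%. The upper bounds for chromosome 6 as a whole, 52.3%, and for its short arm, 50.6%, also fall below it, and those of the long arm and both segments do not. Regions are not replicates, and the genome share includes chromosome 6, so these bounds are a description and not a test. The HLA segment still carried 6 SRA-binding regions per Mb, against 2.14 on the short arm outside both segments, 2.5 in the histone segment and 1.23 on the long arm. It thus had more recurring regions per Mb, and a share of recurring regions no higher than that of the genome.

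**Figure D5:**
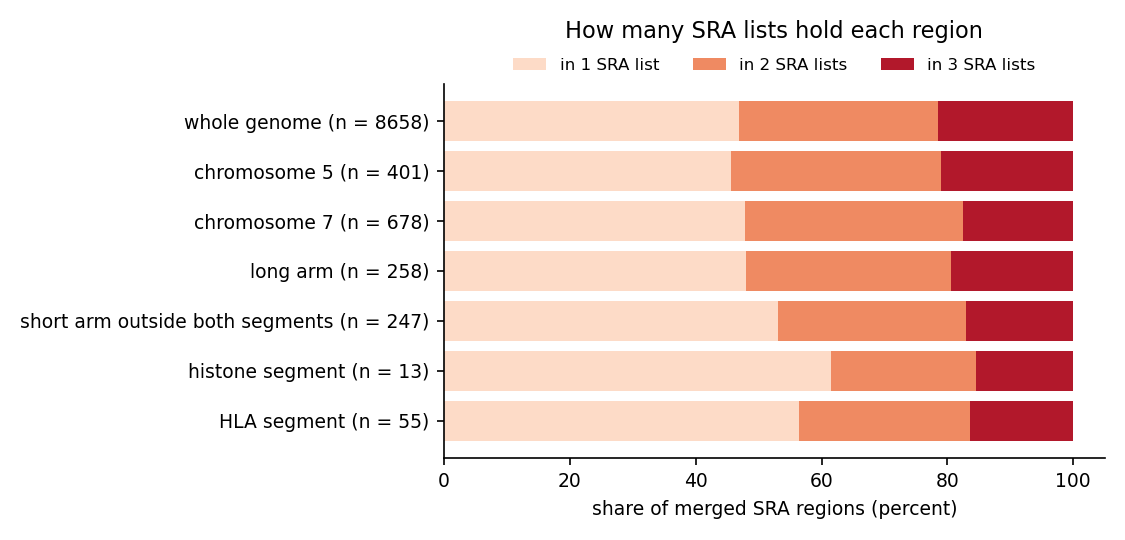
Share of merged SRA regions in 1, 2 or 3 SRA lists, in percent, for the whole genome, chromosomes 5 and 7 and parts of chromosome 6, with the number of regions beside each bar. Regions in 3 lists make up 21.5% over the whole genome, 19.4% on the long arm and 16.4% in the HLA segment.

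On chromosome 6 as a whole, regions in more lists had higher scores. The lists hold no score under 40, so a weak region can be missing from a list. How far this cutoff sets the order was not tested. The median of the mean score was 42.4 for regions in 1 SRA list, 44.2 for those in 2 and 48.5 for those in 3. In the HLA segment the medians were 42.5, 44.1 and 51.6 for 31, 15 and 9 regions. The histone segment did not follow this order, with medians of 48.4, 46.2 and 46.3 for 8, 3 and 2 regions. Widths did not follow the same order, with medians of 168, 163.5 and 168 bp on chromosome 6 for regions in 1, 2 and 3 lists.

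On the short arm, the SRA-binding region with the highest mean score in all 3 lists was chr6:58776480-58777008, only 0.0532 Mb from the arm bound, with scores of 129, 150 and 93.5 in SRA lists 1, 2 and 3. A LacZ list 2 peak began 52 bp from its end, and it was the 1 region that lost its call when LacZ peaks within 500 bp were counted too. It adjoins the stronger region chr6:58777061-58779371, which is 2311 bp wide and had scores of 421, 610 and 293, the highest on the chromosome. That stronger region was touched by a LacZ list 2 peak of score 62.4, which began at the same base, so it was not called SRA-binding. The other short-arm regions named by score lay 5.44 to 30.2 Mb from the arm bound. They were chr6:31782349-31782892 with scores of 60.7, 73.9 and 66.3, chr6:28584614-28584841 with 81.7, 70.4 and 42.1, chr6:53385635-53385858 with 57.4, 62.0 and 67.5, and chr6:42814986-42815202 with 57.4, 62.9 and 63.6. The first of them lies in the HLA segment, and the others lie outside both segments.

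The 5 long-arm regions of highest mean score had means of 58.4 to 73.9. The first short-arm region had a mean of 124, and the other named short-arm regions had 61.3 to 66.9. In SRA lists 1, 2 and 3, chr6:170429275-170429511 had scores of 94.3, 81.2 and 46.0, and chr6:150781716-150781937 had 69.9, 72.6 and 73.4. The next was chr6:158504293-158504511 with 65.2, 72.2 and 59.2, then chr6:159095744-159096032 with 65.3, 55.8 and 62.1, and chr6:135987917-135988108 with 57.4, 58.4 and 59.4. All 5 lay at least 74.2 Mb from the centromere-side bound of the arm. The spread between lists was small for some of these regions and wide for others, such as the first, whose score in list 3 was below those in lists 1 and 2.

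In the HLA segment, the 5 regions of highest mean score among the SRA-binding regions in all 3 lists lay between 30.5 and 32 Mb. After chr6:31782349-31782892 (544 bp) came chr6:31832293-31832654 (362 bp) with scores of 48.8, 55.6 and 65.5 in SRA lists 1, 2 and 3, and chr6:31679186-31679597 (412 bp) with 57.8, 59.3 and 50.9. These 3 regions are close together and wider than the segment's median SRA peak. The remaining regions were chr6:30932464-30932709 (246 bp) with 60.6, 54.9 and 45.3, and chr6:30540553-30540785 (233 bp) with 51.6, 55.8 and 47.3.

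In the histone segment, 2 regions were SRA-binding in all 3 lists. They were chr6:27680773-27681020 (248 bp), with scores of 49.3, 43.8 and 50.2 in SRA lists 1, 2 and 3, and chr6:26596850-26597091 (242 bp), with 53.2, 40.6 and 40.7. Their mean scores were 47.8 and 44.9. The other 11 of its 13 SRA regions were in 1 or 2 lists, with mean scores of 40.4 to 56.0. The 8 LacZ peaks of the segment, 4 from list 1 and 4 from list 2, overlapped 0 of the SRA regions, and the nearest lay 325 bp from one. Over the whole genome only 78 of 8658 SRA regions touched a LacZ peak, so 0 of 13 does not set this segment apart.

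SRA and LacZ peaks met at 4 places on chromosome 6, of which 3 were on the short arm and 1 on the long arm. This is 4 of 573 SRA regions, against 78 of 8658 over the whole genome. Beside the region at the short-arm bound, chr6:3066207-3066328 had scores of 55.5, 43.5 and 55.4 in SRA lists 1, 2 and 3 and was touched by a LacZ list 1 peak of score 45.8. At chr6:47476836-47477058, SRA lists 2 and 3 had scores of 44.6 and 61.3 and a wide LacZ list 3 peak had 40.5. On the long arm, chr6:159302977-159303124 was in SRA list 1 alone with 42.0 and met a LacZ list 1 peak of 44.8. Both segments had 0 such places, among 55 SRA regions in the HLA segment and 13 in the histone segment. At the low share of the whole genome, that is no result about either segment.

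SRA-binding regions were most frequent in windows of the short arm. The window from 31 to 32 Mb had 13 such regions, with 12, 12 and 15 peaks in SRA lists 1, 2 and 3 and 2, 4 and 0 in LacZ lists 1, 2 and 3. The window from 34 to 35 Mb, outside the HLA segment, had 9, with 12, 10 and 9 SRA peaks and 5, 2 and 1 LacZ peaks. From 33 to 34 Mb there were 8, with 16, 7 and 12 SRA peaks and 4, 3 and 0 LacZ peaks. From 42 to 43 Mb there were 7, with 9, 5 and 10 SRA peaks and 4, 3 and 1 LacZ peaks. Next were 4 windows with 5 regions each, starting at 2, 41, 155 and 170 Mb. The dense windows did not form an unbroken block. From 32 to 33 Mb, inside the HLA segment, SRA lists 1, 2 and 3 had 3, 3 and 2 peaks, with 1 SRA-binding region. LacZ lists 1, 2 and 3 had 1, 2 and 2 peaks there. The window from 33 to 34 Mb crosses the centromere-side bound of the segment. Dense windows thus lay on both sides of that bound, with a sparse window between them. At the other extreme, 9 of 58 short-arm windows and 39 of 110 long-arm windows had no SRA-binding region.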

How the data were processed

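ChIRP-seq was carried out on K562 cells with SRA or LacZ probes. Per the labels, the submitters' processing notes name CASAVA 1.8.2, MACS, deepTools and hg19. The MACS version, its control library and the aligner are not given in the sources used here. The authors deposited 1 peak list per sample, with start, end and a score for each peak. Lists were read with Python 3.11.15, pandas 2.3.3, numpy 2.4.6 and scipy 1.17.1, and plots drawn with matplotlib 3.10.9. Overlap was at least 1 base. Lengths ran from base 1 to the last peak of any list, with the centromere gap left out of both arms. Lists were compared by exact permutation of the SRA mean and 3 LacZ lists. Overlap counting was tested on simulated lists. Named regions were the 5 of highest mean score per arm and in the HLA segment among SRA-binding regions in all 3 SRA lists, all such regions of the histone segment, all places touched by both probe sets (up to 10), and the 5 densest 1 Mb windows with their ties. The members and lists were chosen with earlier results of these data known. Input samples were not analysed here.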

Additional observations from a re-analysis of the deposited data

How the results depend on the processing

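Of 113 alternative values, 99 kept the direction and the side of the threshold, or the size, of the reported value, 7 reversed and 7 moved. Some of the 99 could not change, so this count overstates stability. The SRA arm ratio and the SRA width excess do not use the LacZ lists, and the LacZ arm ratio does not use the SRA lists. Pairing the lists, or counting each as a separate sample, repeats the main difference by arithmetic and can change only its p. No test here could reach a p of 0.05, so the side of the threshold says nothing about stability. The higher density of the short arm held in both probe sets under each alternative that was run, with SRA ratios of 2.04 to 2.22 and LacZ ratios of 1.93 to 2.12 without each list in turn.

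With peaks over 1000 bp left out, which leaves LacZ list 3 with 5 chromosome 6 peaks, the SRA minus LacZ difference reversed to 0.432 percentage points for the chromosome 6 share, -0.350 for the short-arm share and -7.80 for the HLA share, and the ratio of HLA density over the rest of the arm, SRA over LacZ, fell from 1.81 to 0.679. With LacZ list 3 left out too, these were -0.411, 2.70, 3.68 and 1.69. Without each list in turn, the short-arm share difference ran from -0.0525 to 2.71, the histone share difference from -0.132 to 1.04, the HLA share difference from 3.54 to 4.15 and the chromosome 6 share difference from -3.86 to -0.503. The histone share difference was -0.574 with the segment widened by 0.5 Mb on each side. Apart from the left-out lists and wide peaks, the causes were not tested.

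The 276 SRA-binding regions became 154 to 277 without each list in turn, 147 when peaks scoring under the median of their list were left out, 101 with all 3 SRA lists required and 569 with any SRA list. Without an SRA list, both remaining ones were required to hold a region. The excess width of HLA peaks in the SRA lists moved from 66 to 82.8 bp when lower-scoring peaks were left out in the same way, and for the peaks kept the HLA density ratio gave no value, because LacZ list 3 had 0 in the segment. Alternatives for that ratio and width, the short arm outside both segments, shares of whole lists and leaving out list 3 with the wide peaks were chosen after seeing the data.

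With lists of the same number paired (replicate block), the mean differences are the same by arithmetic. They were -2.60 for the chromosome 6 share, 1.29 for the short-arm share, 0.609 for the histone share and 3.76 for the HLA share. The exact sign-flip p was 0.5, 0.75, 0.25 and 0.25, in that order. Same-numbered lists showed no common deviation over 1 Mb windows (correlations of 0.0471, -0.0267 and -0.0122). Lists of different number had correlations of -0.0720 to 0.0592. Counts per window are small, so this cannot tell whether same-numbered lists shared a culture or a batch.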

Other observations

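The LacZ lists had strong peaks of their own on chromosome 6, which were chosen here after their values were seen. In LacZ list 1 the highest score was 152 at chr6:10499461-10499590 on the short arm, 38.0 kb from the nearest SRA peak. In LacZ list 2 it was 90.3 at chr6:73931086-73931339 on the long arm, 168 kb from the nearest SRA peak. LacZ list 3 reached 61.5 at chr6:16096623-16099063, a peak 2441 bp wide and 157 kb from the nearest SRA peak.

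In the HLA segment, the highest LacZ peaks of lists 1 and 2 fell on the same place, chr6:30635344-30635521 with a score of 67.9 and chr6:30635352-30635548 with 56.2. They lay 15.7 and 15.6 kb from the nearest SRA peak. Their scores are in the range of the named SRA-binding regions of the segment.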
